A study of Homo sapiens with 9 samples.

Results

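The transcripts of glucose uptake, glycolysis, lactate formation, pyruvate dehydrogenase control, the pentose phosphate pathway and UDP-glucose formation were followed in AGS gastric cancer cells after stable loss of HIF1A. The 31 members were taken by gene symbol from a fixed list, and each was represented by its brightest probe common to both array versions. All 31 had such a probe, and 30 of them were among the 12195 genes and unnamed probes tested. AGS is an established human gastric adenocarcinoma line. HIF-KD cells had been stably transduced by lentivirus with a small hairpin RNA against HIF1A, and Scrambled cells carried a control hairpin in the same way. The study's title places them in normoxia, and both were grown in DMEM with serum. Each group rests on 1 transduced line, so an effect of the hairpin other than loss of HIF1A cannot be told apart from it. The 3 replicates per group filled 9 Illumina BeadChip arrays. Replicates 1 and 2 had 1 array per group on the HumanRef-8 version, and replicate 3 had 3 HIF-KD and 2 Scrambled technical arrays on the HumanHT-12 version.

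Cells take up glucose through facilitative transporters, trap it by phosphorylation with a hexokinase, split it with an aldolase and end with pyruvate, which lactate dehydrogenase turns into lactate or pyruvate dehydrogenase passes to the mitochondria. The pentose phosphate pathway branches off after the hexokinase step and supplies ribose and reducing power. HIF-1 is a transcription factor made of an oxygen-regulated alpha subunit and a constant partner. It is best known for inducing many genes of glucose uptake and glycolysis in hypoxia, together with PDK1, a kinase that switches off pyruvate dehydrogenase. Several steps are covered by more than 1 isoform, and in many cancer cells HK2, ALDOA, ENO1 and LDHA are regarded as the hypoxia-responsive ones.

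Signals were normalized log2 values, on which a difference of 1 is a 2-fold change. Values of different genes come from different probes and were not set against each other. The targeted transcript, HIF1A, had 6.35, 5.33 and 5.95 in HIF-KD replicates 1, 2 and 3, against 9.02, 7.57 and 7.97 in Scrambled replicates 1, 2 and 3. All HIF-KD values lay below all Scrambled values. The log2 signal of HIF1A fell by 2.31 (standard error 0.16, limma adjusted p = 0.00443 with the replicate as a block). The call was lost in some other fits, among them the fit without replicate 1 (log2 fold change -2.13, adjusted p = 0.0876). Over all genes tested, 0.115% passed the same test in either direction (9 higher and 5 lower). At a detection p under 0.01, the share of detected probes per array ran between 33.6% and 55.6%. Of 6 epithelial markers, 5 were detected on all 9 arrays, and 5 of 6 fibroblast markers and 3 of 4 endothelial markers on none. The exceptions were CLDN4 (epithelial), detected on 7 of the 9 arrays, COL1A1 (fibroblast), on 8, and PECAM1 (endothelial), on 3. Of 5 leukocyte markers, 3 were detected on no array and LYZ, the lysozyme gene, on all 9.

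None of the 30 members tested passed limma's test at an adjusted p under 0.05 in either direction (over all genes tested, 0.0738% were called higher and 0.041% lower). The lowest adjusted p of a member was 0.354. None was called by the rank rule of the study's methods as rebuilt here, which called 0.763% of all genes tested. At an unadjusted p under 0.05, 3 members had a lower signal in HIF-KD cells (10% of those tested, against 4.13% of all genes tested). These were HK1, ALDOC and UGP2. No member had a higher signal at that level (3.41% of all genes tested did). The log2 fold changes of the members, HIF-KD minus Scrambled, ran between -0.54 and 0.34 with a median of -0.09, against a median of -0.01 over all genes tested. In these bulk samples, fewer cells with a transcript and less of it per cell cannot be told apart. A mean below 0 was found for 21 of the 30 members (70%, against 51.7% of all genes tested). An absolute log2 fold change under 0.3 was found for 26 of the 30 members and for 87.1% of all genes tested. The 95% interval of every member lay within 1 on the log2 scale on either side of 0, and that of 22 members within 0.5. At this precision a 2-fold change in the signal of a single member would lie outside its interval. Smaller differences were not resolved for most members. For dim probes, such as those of PDK1 and PDK2, the background correction used here pulls differences towards 0. Their intervals therefore cannot exclude a 2-fold change of the transcript.

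**Figure D1:**
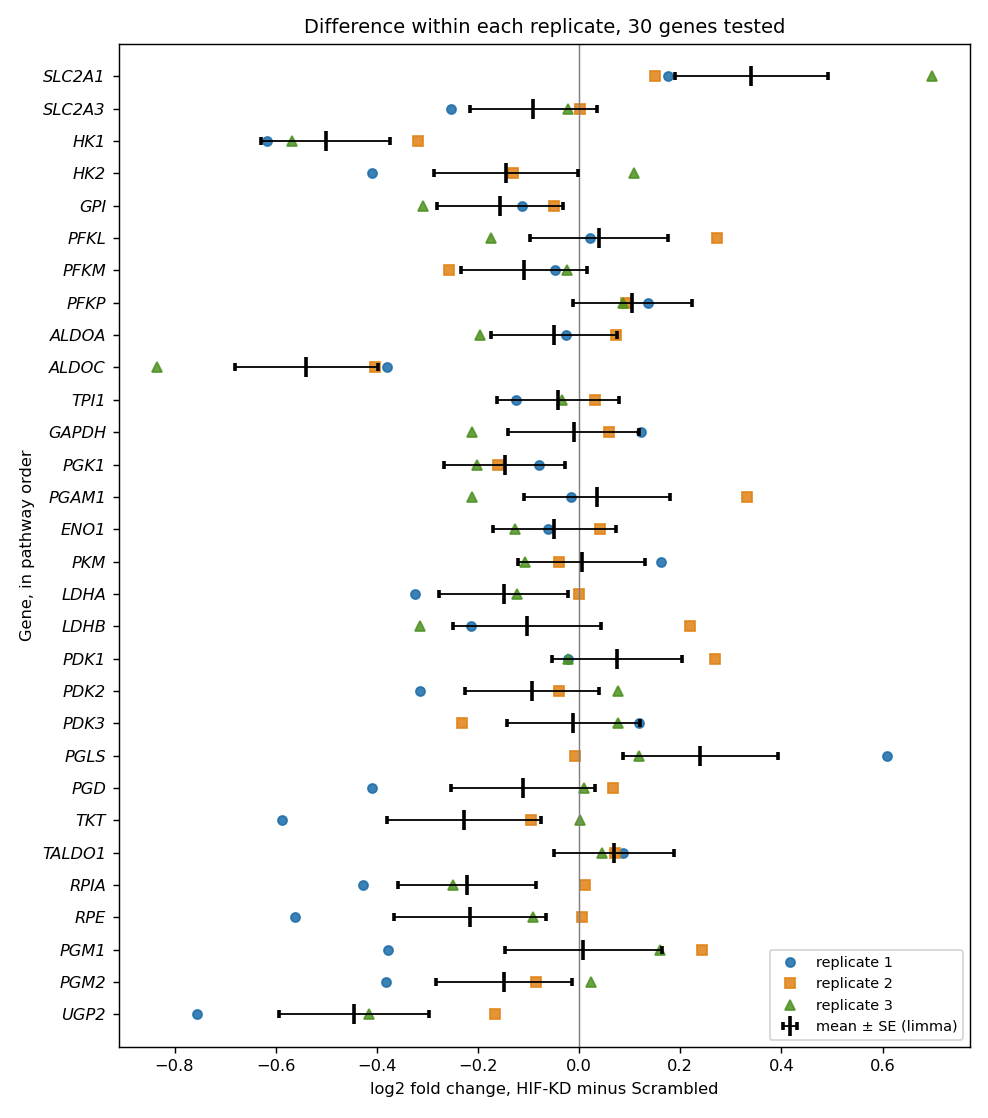
Log2 fold change (HIF-KD minus Scrambled, x axis) of the 30 members tested, in pathway order down the page. Coloured symbols are the 3 replicates and black marks the mean ± standard error from limma. HK1, GPI, PFKM, ALDOC, PGK1 and UGP2 have all symbols left of 0 and SLC2A1, PFKP and TALDO1 have all of them right of 0.

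Below 0 in all 3 replicates were 6 members, namely HK1, GPI, PFKM, ALDOC, PGK1 and UGP2 (20% of the 30, against 17.4% of all genes tested). Above 0 in all 3 were SLC2A1, PFKP and TALDO1 (10%, against 14.5%). Both shares were near those of all genes. The replicates differed in how many members were lower. In replicate 1, 22 of 30 members were below 0 (52.8% of all genes tested were), in replicate 2 it was 13 (51.1%) and in replicate 3 it was 19 (51.3%). The median of the members was -0.12, 0.00 and -0.06 in replicates 1, 2 and 3, against -0.02, -0.01 and -0.01 over all genes. The deposited log2 signals of replicate 1, before normalization, had a median of 5.34 on the HIF-KD array and 5.59 on the Scrambled array, whereas the medians of the other arrays of 1 replicate differed less. The part of this in the members' values was not tested.

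HIF-1 binds DNA at a short core that holds ACGTG or GCGTG. The 250 bases upstream of the RefSeq start site (GRCh38.p14) were available for 30 of the 31 members and were searched for both on either strand. ACGTG occurred in 12 of the 30 members (40%) and in 18.5% of 35116 promoters of the same length. GCGTG occurred in 10 (33.3%, against 32.2%). Either core occurred in 15 (50%, against 43.2%). The 35116 promoters were not limited to the genes tested, and these differences in share were not tested. ACGTG is also part of CACGTG, a site of MYC and related factors, so the searches overlap with that motif. HK1, SLC2A1 and PDK1 had neither core in this window, and ENO1 had GCGTG only. A stretch around an ACGTG is shown for ALDOC and UGP2, members with the lowest log2 fold changes beside HK1, and for PGK1 and LDHA, textbook targets of HIF-1. Capitals mark ACGTG or its reverse complement, and a run of 6 capitals is a core on both strands. The stretches lie at chr17:28576896-28576948 (minus strand, ALDOC), chr2:63840860-63840914 (plus strand, UGP2), chrX:78104040-78104094 (plus strand, PGK1) and chr11:18394465-18394519 (plus strand, LDHA).
ALDOC: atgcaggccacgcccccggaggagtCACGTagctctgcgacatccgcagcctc
UGP2: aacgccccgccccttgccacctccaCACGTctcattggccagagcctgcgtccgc
PGK1: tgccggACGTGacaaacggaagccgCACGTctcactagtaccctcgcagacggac
LDHA: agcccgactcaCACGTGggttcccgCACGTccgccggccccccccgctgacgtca
A match is a description of the sequence and was not read as a site of binding.

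Glucose uptake was represented by SLC2A1, which encodes GLUT1, the widespread basal transporter, and SLC2A3, which encodes the high-affinity GLUT3. SLC2A1 had 9.86, 9.78 and 9.57 in HIF-KD replicates 1, 2 and 3, against 9.68, 9.64 and 8.88 in Scrambled replicates. HIF-KD was above Scrambled within each replicate, but the groups overlapped because the replicates differed in level. The log2 fold change was 0.34 (standard error 0.15, 95% interval -0.01 to 0.69, adjusted p = 0.662 from limma), and 0.17, 0.15 and 0.70 by replicate. Without replicate 3 it was 0.16, so the mean rests in large part on that replicate, where the 3 HIF-KD arrays (9.38 to 9.68) did not overlap the 2 Scrambled arrays (8.81 to 8.94). SLC2A3 had 7.69, 7.13 and 6.06 in HIF-KD cells, against 7.94, 7.12 and 6.08 in Scrambled cells. Its difference was -0.25 in replicate 1 and 0.00 and -0.02 in the others.

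The hexokinases were HK1, the housekeeping isoform on the outer mitochondrial membrane, and HK2, the isoform induced in many tumours. HK1 had 9.96, 10.03 and 8.70 in HIF-KD replicates, against 10.58, 10.35 and 9.27 in Scrambled replicates, with the HIF-KD value lower in each pair and the groups overlapping. Its log2 fold change was -0.50 (standard error 0.13, 95% interval -0.80 to -0.20, unadjusted p = 0.00531, adjusted p = 0.354 from limma), with -0.62, -0.32 and -0.57 by replicate. In replicate 3 the HIF-KD arrays lay between 8.55 and 8.81 and the Scrambled arrays between 9.17 and 9.37. Of the other HK1 probes on both versions, a pair was detected on no array and 1 was detected on 2 of 9 arrays, so HK1 rests on 1 probe. The mean over the 2 HK1 probes that passed the filter on dim probes was -0.25. HK2 had 7.45, 6.62 and 7.10 in HIF-KD cells, against 7.86, 6.75 and 6.99 in Scrambled cells. Its differences of -0.41, -0.13 and 0.11 changed sign between replicates, and an HK2 probe of the HumanHT-12 version alone gave 0.01 in replicate 3. HK1 was thus the hexokinase with the lower signal in every pair, and HK2 was above HK1 in its change by 0.21, 0.19 and 0.67 in replicates 1, 2 and 3 (mean 0.36, SD 0.28, n = 3). That mean was 0.20 without replicate 3 and 0.10 with the mean over the probes that passed the filter.

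**Figure D2:**
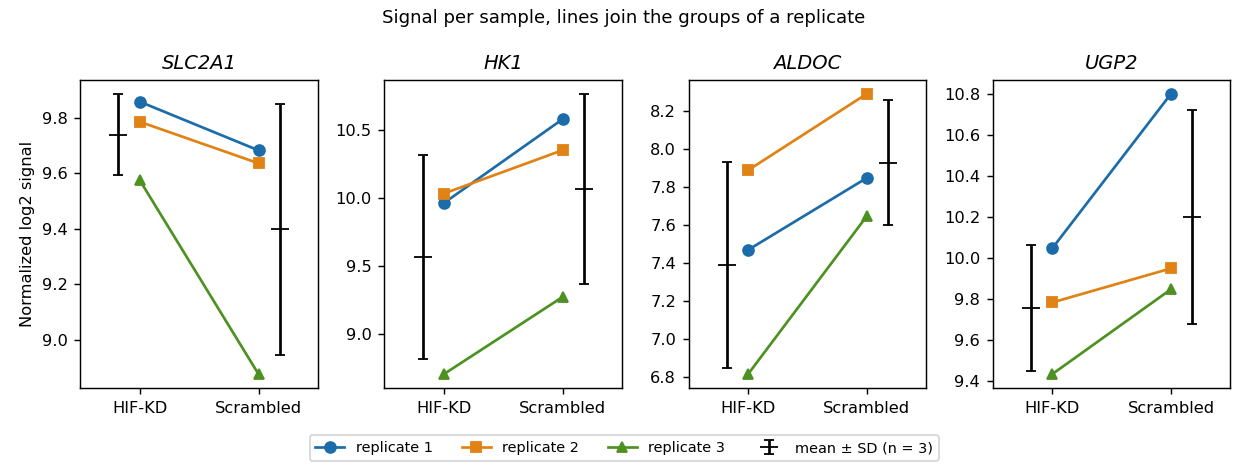
Normalized log2 signal (y axis, own scale per gene) of SLC2A1, HK1, ALDOC and UGP2 in the 3 HIF-KD and the 3 Scrambled samples, with lines joining the groups of a replicate and mean ± SD (n = 3) at the sides. The lines of HK1, ALDOC and UGP2 all have the HIF-KD end lower, and those of SLC2A1 have it higher.

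The mean difference of GPI, which turns glucose phosphate into fructose phosphate, was -0.16 (standard error 0.12), and it was below 0 in all 3 replicates (-0.11, -0.05 and -0.31). Phosphofructokinase, the committed step of glycolysis, is a tetramer of subunits named for liver, muscle and platelet, and all 3 of their genes were detected on all 9 arrays. PFKL had 8.54, 9.09 and 7.72 in HIF-KD cells, against 8.52, 8.82 and 7.89 in Scrambled cells. PFKM had 8.99, 8.38 and 8.08, against 9.04, 8.63 and 8.10 in Scrambled cells. PFKP had 10.56, 10.72 and 10.00, against 10.42, 10.63 and 9.91 in Scrambled cells. PFKP was slightly above 0 in every replicate (0.14, 0.09 and 0.09), PFKM slightly below (-0.05, -0.26 and -0.02), and PFKL changed sign (0.02, 0.27 and -0.17). None of these differences exceeded its error (adjusted p between 0.798 and 0.938 from limma).

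The aldolases split fructose bisphosphate into triose phosphates. ALDOA is the widespread form, and ALDOC is best known from brain and is also induced by hypoxia in several cell types. ALDOC had 7.47, 7.89 and 6.81 in HIF-KD replicates, against 7.85, 8.29 and 7.65 in Scrambled replicates, with the HIF-KD value lower in each pair and the groups overlapping. Its log2 fold change was -0.54, the lowest of all members (standard error 0.14, 95% interval -0.87 to -0.21, unadjusted p = 0.00613, adjusted p = 0.378 from limma). By replicate it was -0.38, -0.40 and -0.83. In replicate 3, the HIF-KD arrays lay between 6.39 and 7.06 and the Scrambled arrays between 7.46 and 7.84. ALDOA had 12.50, 12.67 and 11.49 in HIF-KD cells, against 12.52, 12.60 and 11.68 in Scrambled cells. Its log2 fold change was -0.05 (standard error 0.12) and turned above 0 with scaling to a common median (0.02), with the mean over the 3 of its probes that passed the filter (0.06) and without replicate 3 (0.02). A probe among them, with 0.30, was detected on 2 of 5 HIF-KD and 1 of 4 Scrambled arrays. ALDOC was below ALDOA in its change by 0.35, 0.48 and 0.64 in replicates 1, 2 and 3, a mean difference of -0.49 (SD 0.14, n = 3). This was the pair with the smallest spread between replicates.

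In the lower part of glycolysis, in which ATP is gained, the mean log2 fold changes of PGK1, GAPDH, PGAM1 and PKM lay between -0.15 and 0.03. In replicate 3 all of them were below 0, with a median of -0.21 (51.3% of all genes tested were below 0 in that replicate). Replicates 1 and 2 did not show this, with medians of 0.05 and 0.01 and 2 of the 4 genes below 0 in each. PGK1, a classical HIF-1 target that makes ATP from bisphosphoglycerate, had 10.17, 9.18 and 9.09 in HIF-KD cells, against 10.25, 9.34 and 9.29 in Scrambled cells. It was below 0 in all 3 replicates (-0.08, -0.16 and -0.20), with a log2 fold change of -0.15 and a 95% interval of -0.43 to 0.13. Its probe of the HumanHT-12 version alone gave -0.07 in replicate 3, with overlapping arrays. The mean log2 fold changes of the triose and pyruvate steps around it were nearer to 0. TPI1, which interconverts the triose phosphates, had a log2 fold change of -0.04 and GAPDH, the dehydrogenase often used as a reference transcript, had -0.01. Both turned above 0 with scaling to a common median (0.04 and 0.01). PGAM1, a mutase, had 0.03 with -0.02, 0.33 and -0.21 by replicate. A PGAM1 probe of the HumanHT-12 version alone gave -0.33 in replicate 3, with overlapping arrays. PKM, pyruvate kinase, had 0.00, and its other 2 probes common to both versions had means of 0.05 and 0.03. PKM probes cannot be assigned here to the M1 or the M2 splice form.

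Of the enolases among the members, ENO1, the widespread form, was detected on all 9 arrays and ENO2 was not detected. ENO1 had 13.14, 13.14 and 12.56 in HIF-KD cells, against 13.20, 13.10 and 12.68 in Scrambled cells. The log2 fold change of -0.05 turned to 0.02 with scaling to a common median. ENO2, the neuronal form, was detected on none of the 5 HIF-KD and none of the 4 Scrambled arrays. It was the member that did not pass the filter on dim probes, so no difference is given for it. ENO3, the muscle form, belongs to the other glucose genes, was detected on all 9 arrays and had a log2 fold change of 0.23 (adjusted p = 0.703 from limma), with 0.48, -0.10 and 0.30 by replicate.

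Lactate dehydrogenase is a tetramer of A and B subunits, of which LDHA favours the formation of lactate. LDHA had 13.04, 12.41 and 11.78 in HIF-KD cells, against 13.36, 12.41 and 11.90 in Scrambled cells. LDHB had 11.24, 10.81 and 11.40, against 11.46, 10.59 and 11.71 in Scrambled cells. LDHA had a log2 fold change of -0.15 (95% interval -0.45 to 0.15) and LDHB one of -0.10 (95% interval -0.45 to 0.24). LDHB changed sign between replicates (-0.21, 0.22 and -0.32), and a detected LDHA probe of the HumanHT-12 version alone gave -0.12 in replicate 3. The change of LDHB relative to LDHA was 0.05 (SD 0.21, n = 3), smaller than its spread.

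The pyruvate dehydrogenase kinases hold pyruvate back from the mitochondria, and PDK1, the one best known as a HIF-1 target, was the least often detected of the 3 among the members. PDK1 was detected on 2 of 5 HIF-KD and 2 of 4 Scrambled arrays, which were those of replicates 1 and 2, and on no array of replicate 3. Its signal was 4.95, 5.35 and 4.28 in HIF-KD cells, against 4.97, 5.09 and 4.30 in Scrambled cells. The differences were -0.02 and 0.27 in the replicates that measured it, and the fit, which includes the undetected replicate, gave 0.07 (standard error 0.13, adjusted p = 0.868 from limma). PDK2 had 4.98, 5.25 and 5.09 in HIF-KD cells, against 5.29, 5.29 and 5.01 in Scrambled cells. PDK3 had 8.44, 7.64 and 7.26, against 8.32, 7.88 and 7.18 in Scrambled cells. Neither kept its sign over the replicates. The PDK3 probes did not give the same result in replicate 3, where the common probe had 0.08 and the probe of the HumanHT-12 version had -0.50, with 7.20 to 7.62 on the HIF-KD arrays and 7.91 to 8.01 on the Scrambled arrays.

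**Figure D3:**
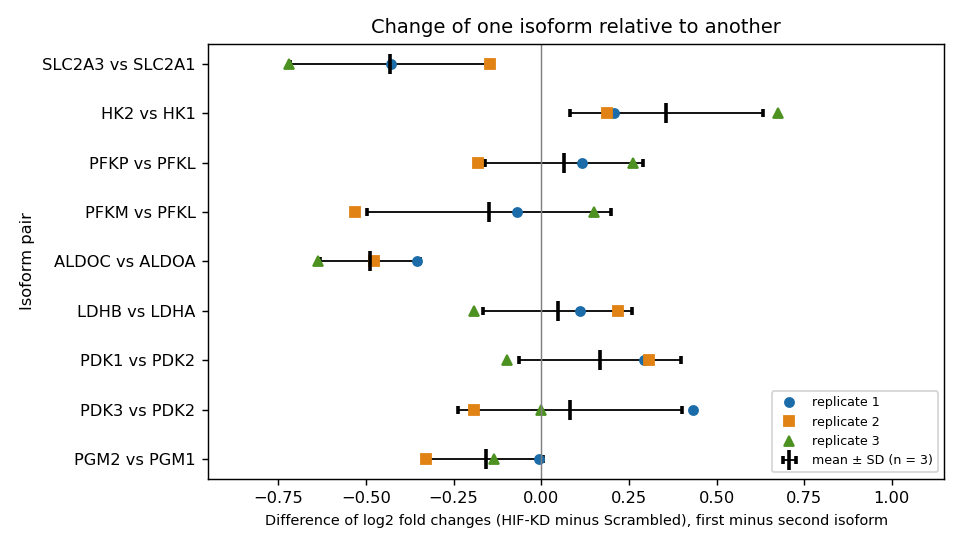
Change of the first isoform minus change of the second (x axis, difference of log2 fold changes, HIF-KD minus Scrambled) for the 9 isoform pairs that could be computed. Symbols are replicates and black marks the mean ± SD (n = 3), with SLC2A3 vs SLC2A1, ALDOC vs ALDOA and PGM2 vs PGM1 left of 0 and HK2 vs HK1 right of 0 in every replicate.

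Of 10 isoform pairs, 9 could be computed, and in 4 of them the difference of the changes had the same sign in all 3 replicates. These were SLC2A3 against SLC2A1 (mean -0.43, SD 0.29), HK2 against HK1, ALDOC against ALDOA and PGM2 against PGM1 (mean -0.16, SD 0.16). The last of these was only -0.006 in replicate 1. Of all single genes tested, 14.5% were above 0 and 17.4% below 0 in all 3 replicates. No such share was computed for pairs of genes. An exact two-sided sign-flip permutation test over 3 replicates cannot go below p = 0.25, which these 4 pairs reached (adjusted p = 0.562 over the 9 pairs). Without replicate 3 the mean for SLC2A3 against SLC2A1 was -0.29, and that for PGM2 against PGM1 was -0.07 without replicate 2 and -0.25 with scaling to a common median. The balance of the phosphofructokinase, lactate dehydrogenase and pyruvate dehydrogenase kinase isoforms had mixed signs.

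The 6 members of the pentose phosphate pathway were detected on all 9 arrays. PGD, the dehydrogenase of its oxidative arm, had -0.41 in replicate 1 and 0.07 and 0.01 in replicates 2 and 3. TKT, the transketolase that links the pathway back to glycolysis, had -0.59, -0.10 and 0.00. RPE and RPIA, the epimerase and isomerase of ribulose phosphate, had -0.56, 0.01 and -0.09, and -0.43, 0.01 and -0.25. Each of these 4 genes had its lowest difference in replicate 1, and their means lay between -0.23 and -0.11. PGLS, the lactonase, ran the other way in that replicate with 0.61, against -0.01 and 0.12 in the others. TALDO1, the transaldolase, was the steadiest of the group with 0.09, 0.07 and 0.05, a log2 fold change of 0.07 (standard error 0.12). The adjusted p of the 6 genes lay between 0.703 and 0.868.

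Glucose phosphate is also sent towards glycogen and glycosylation by the phosphoglucomutases and by UGP2, which makes UDP-glucose. UGP2 had 10.05, 9.78 and 9.43 in HIF-KD replicates, against 10.80, 9.95 and 9.85 in Scrambled replicates, with the HIF-KD value lower in each pair and the groups overlapping. Its log2 fold change was -0.45 (standard error 0.15, 95% interval -0.79 to -0.10, unadjusted p = 0.019, adjusted p = 0.527 from limma), with -0.76, -0.17 and -0.41 by replicate. Without replicate 1 it was -0.29. A second UGP2 probe, also common to both versions and detected on all 9 arrays, gave -0.41, -0.44 and -0.50. Another probe, of the HumanHT-12 version alone, gave -0.65 in replicate 3 with no overlap between the HIF-KD arrays (5.09 to 5.35) and the Scrambled arrays (5.86 to 5.91). Every UGP2 probe that was detected thus had a lower signal in HIF-KD cells, although the probes share the samples and are not replicates. PGM1, the main phosphoglucomutase, had 11.76, 11.996 and 10.67 in HIF-KD cells, against 12.14, 11.75 and 10.51 in Scrambled cells. PGM2 had 8.58, 8.51 and 7.84, against 8.97, 8.59 and 7.82 in Scrambled cells. PGM1 had -0.38, 0.24 and 0.16 by replicate and PGM2 had -0.38, -0.09 and 0.02, so neither kept its sign.

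**Figure D4:**
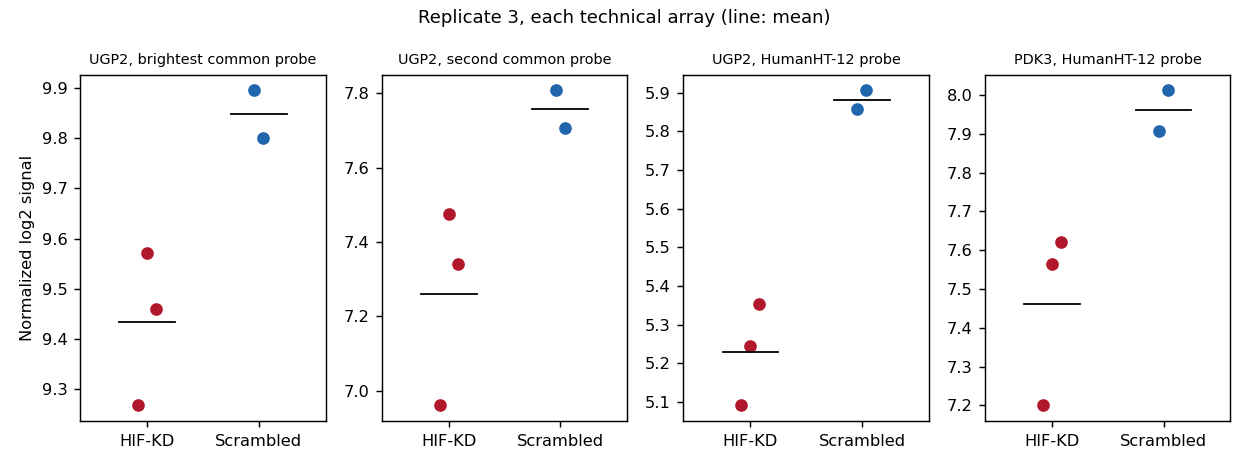
Normalized log2 signal (y axis, own scale per panel) on each of the 3 HIF-KD and 2 Scrambled technical arrays of replicate 3, for the 3 detected UGP2 probes and the PDK3 probe of the HumanHT-12 version. Points are arrays and lines are means, and in every panel the HIF-KD arrays lie below the Scrambled arrays.

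In replicate 3 the technical arrays of the groups did not overlap for 8 members, with the HIF-KD arrays lower in 7 (HK1, GPI, PFKL, ALDOC, PGK1, LDHB and UGP2) and higher in SLC2A1. These were 23.3% and 3.33% of the 30 members, against 13.1% lower and 13.2% higher over all genes tested. The median SD between technical arrays of the members was 0.15 for the HIF-KD and 0.14 for the Scrambled arrays. These arrays are of 1 replicate and measure technical spread only.

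Of 54 other genes of glucose metabolism, 48 had a probe on both versions and 32 were tested. None passed limma's test (lowest adjusted p = 0.320), and 4 had a lower and 0 a higher signal at an unadjusted p under 0.05 (12.5% lower, against 4.13% lower and 3.41% higher over all genes tested). Their median log2 fold change was -0.02. SLC5A1, a sodium-coupled glucose transporter, was detected on 0 of 5 HIF-KD and 4 of 4 Scrambled arrays. Its mean was 4.52 in HIF-KD cells and 5.05 in Scrambled cells (log2 fold change -0.52, adjusted p = 0.320 from limma). The Scrambled mean was 1.20-fold above 4.78, the mean of the lowest signals that count as detected for the HIF-KD samples. This ratio leaves out the spread between replicates, and Scrambled replicate 1 (4.70) lay below 4.78, so it is not a lower bound of the difference. SLC2A10, another transporter gene, had a log2 fold change of -0.38 and was detected on 3 of 5 HIF-KD and 4 of 4 Scrambled arrays. PRPS2, a synthetase of phosphoribosyl pyrophosphate, had -0.36, and PFKFB2, which sets the level of an activator of phosphofructokinase, had -0.34.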

How the data were processed

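Total RNA of HIF-KD and Scrambled cells was labelled with biotin and hybridized on Illumina BeadChips. The authors deposited log2 signals with a detection p-value (p-value of each probe against negative controls) in tables named non-normalized, and processed log2 values, for which the methods name RMA and beadarray and which served as an alternative. Here the deposited log2 signals were taken back to the linear scale, corrected for background with limma's nec (offset 16), quantile-normalized separately for each array version, then put back on the log2 scale. The offset pulls the differences of dim probes towards 0. After averaging technical arrays, the tables were merged on their 24525 shared probes. As in the methods, a probe was dropped if it lay below the sample's median in all 6 samples (14686 kept), and the brightest probe of a gene was used. Symbols came from the platform annotation, updated through the gene table of GRCh38.p14, and 16 probes with different symbols in the 2 annotations stayed unnamed.

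Groups were compared with limma 3.58.1 in R 4.3.3 (lmFit, eBayes, 2 residual and 5.25 prior degrees of freedom), with Benjamini-Hochberg adjustment over all 12195 genes and unnamed probes. The replicate was a block, since the methods compare sample with control within each experiment and the labels put both groups of a replicate on the same BeadChip. Deviations from the group means correlated at 0.62, 0.80 and 0.85 between the groups of replicates 1, 2 and 3, to which a shared array version contributes. The methods speak of independent experiments, but the labels do not say that replicates were separate cultures; if not, p-values measure the spread between these samples. The rank rule scales the log2 fold changes of a replicate by the median absolute deviation among 501 neighbouring genes, and calls a gene whose scaled value has 1 sign and lies among the highest 10% every time. The fit was also run on simulated data with independent normal noise, which checks the calculation only, and no result rests on that run. Values in every sample are given for members at an unadjusted p under 0.05, members of the same sign in all 3 replicates with an absolute log2 fold change of 0.3 or more, PDK1 and all isoforms compared. PGK1 and ENO3 were added after their values were seen. Of the other glucose genes, the 4 with the lowest unadjusted p are named. The members and lists were chosen with earlier results of these data known. Precision is limited by how few replicates there are and, for dim probes, by the background.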

Additional observations from a re-analysis of the deposited data

How the results depend on the processing

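No member passed under any of the 16 alternatives to the fit, where the lowest adjusted p of a member was 0.133 (ALDOC, scaling to a common median), or by the rank rule. The sign of the log2 fold change held for 17 of the 30 members under all of them, HK1 (-0.59 to -0.25), ALDOC (-0.62 to -0.39), UGP2 (-0.58 to -0.29) and SLC2A1 (0.16 to 0.44) included. The other 13 lay near 0 and changed sign. Some alternatives change only the error or the genes tested and left these log2 fold changes as in the main fit. They were no filter, a filter on detection, the array version as covariate, eBayes with a trend and an unpaired t-test. These could not change a sign, and the share of all genes tested that kept its sign was not computed. With scaling to a common median ALDOA had 0.021, ENO1 0.019, GAPDH 0.011, TPI1 0.039, PFKL -0.0093 and PKM -0.0012, and ALDOC minus ALDOA was -0.63. With all arrays normalized together, with or without the replicate block, GAPDH had 0.0013 and PKM -0.00071. With the mean over the probes that passed the filter ALDOA had 0.056. With the first technical array only PFKL had -0.032, PGAM1 -0.077 and PKM -0.092. With a replicate left out, the range was -0.11 to 0.023 for ALDOA, -0.077 to 0.090 for GAPDH, -0.26 to 0.0034 for LDHB, -0.022 to 0.12 for PDK1, -0.18 to 0.018 for PDK2, -0.077 to 0.098 for PDK3, -0.077 to 0.15 for PFKL, -0.11 to 0.16 for PGAM1, -0.20 to 0.038 for PGD, -0.11 to 0.20 for PGM1 and -0.074 to 0.061 for PKM. The median of the members was then between -0.12 and -0.04, and 7 to 16 members were below 0 in both remaining replicates. A sign is kept more easily over fewer replicates, and the share of all genes tested was not computed for this count.

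HIF1A kept its direction but did not pass with an offset of 50 (-1.81, adjusted p = 0.066) or with no filter (-2.31, adjusted p = 0.462). It also did not pass with no replicate block and the array version as covariate (-2.31, adjusted p = 0.99996), with no replicate block and no covariate (-2.23), or by an unpaired t-test (-2.31). The methods name that t-test in general and describe the rank rule for the arrays. HIF1A had -2.46 to -2.13 with a replicate left out. The genes called over all genes tested, 14 here, were 3 with an offset of 50, 50 with scaling to a common median, 31 with all arrays normalized together, 9 with the first technical array only, 2 with no replicate block and the array version as covariate, 1 with no replicate block and no covariate, and 93 by the rank rule. None was called with no filter (1345 at an unadjusted p under 0.05) or by the unpaired t-test (116 at an unadjusted p under 0.05). With a replicate left out the count was 0 (without replicate 1) to 10 (without replicate 2). The rank rule and the counts for the other glucose genes and the hypoxia genes under each alternative were chosen after seeing the data, and the counts of these lists were 0 throughout. The cause of these changes was not tested. Signal over background limits PDK1, which the filter on detection removed, and ENO2.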

Other observations

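Hypoxia-inducible genes outside glycolysis were counted in the same way, since HIF-1 is known for inducing both. Of 26 such genes, 24 had a probe on both versions and 21 were tested. None passed limma's test (lowest adjusted p = 0.497), and 3 had a lower and 0 a higher signal at an unadjusted p under 0.05 (14.3% lower, against 4.13% lower and 3.41% higher over all genes tested). Their median log2 fold change was -0.03, against -0.09 for the members and -0.01 over all genes tested, and 4 were below 0 in all 3 replicates (19%, near the 17.4% of all genes tested). BNIP3L, a mitophagy receptor, had a log2 fold change of -0.48 and was detected on 3 of 5 HIF-KD and 3 of 4 Scrambled arrays. P4HA1, a collagen prolyl hydroxylase, had 7.25, 6.74 and 7.56 in HIF-KD cells, against 7.88, 7.29 and 7.58 in Scrambled cells (log2 fold change -0.40). KDM3A, a histone demethylase, had 5.72, 5.69 and 6.26, against 6.22, 6.01 and 6.43 in Scrambled cells (log2 fold change -0.33). The highest log2 fold changes of this list were those of DDIT4 (0.42), ADM (0.34) and BHLHE40 (0.31). DDIT4 had -0.06, 0.04 and 1.27 by replicate, and BHLHE40 was above 0 in all 3 replicates. The median of the list in replicate 3 was 0.09. The genes named here were picked after their values were seen, and the difference between the lists was not tested. A TPI1 probe of the HumanHT-12 version alone had a difference of -0.29 in replicate 3, with 11.36 to 11.63 on the HIF-KD arrays and 11.67 to 11.91 on the Scrambled arrays, whereas the arrays overlapped for the TPI1 probe common to both versions (-0.03).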
